A study of Mus musculus with 12 samples.

Results

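Expression of 9 genes of adrenergic signalling was examined in the heart muscle of 12 male C57BL6/J mice, aged 5 months, with 1 array per mouse. The genes were the receptors Adrb1, Adrb3, Adra1a and Adra1b, the G protein subunits Gnas and Gnai2, the adenylyl cyclases Adcy5 and Adcy6, and the arrestin Arrb1. They were taken by symbol, 9 of 36693 gene names on the array, with every non-control probe that carried such a name, which gave 21 of the 56605 probes. Streptozotocin, which destroys pancreatic beta cells, had been injected on 5 days at a daily dose of 50 mg/kg to make mice diabetic. Mice with a blood glucose of 17 mM or more counted as diabetic. Vehicle or pargyline, which inhibits monoamine oxidase (MAO), was then given over 12 weeks, pargyline by intraperitoneal injection at a daily dose of 50 mg/kg. The groups, with 3 mice each, were controls without either agent (C), controls given pargyline (C+P), diabetic mice (D) and diabetic mice given pargyline (D+P). The labels give no genetic change in any group, and diabetes here was a chemical model, so direct actions of streptozotocin and effects of the lack of insulin cannot be told apart.

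Noradrenaline and adrenaline act on heart muscle through beta receptors, which couple to the stimulatory G protein, raise cAMP through adenylyl cyclase and so increase rate and force, and through alpha1 receptors, which couple to Gq and phospholipase C. The inhibitory subunit encoded by Gnai2 restrains adenylyl cyclase, and arrestins uncouple and internalise receptors after their phosphorylation. MAO degrades noradrenaline, among other amines, which makes these genes of interest in a study of its inhibition. Whole heart muscle was used, and in such bulk RNA fewer cells of a type and less RNA per cell cannot be told apart.

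The probes are oligonucleotides of 60 bases. The sequences below belong to the probe with the most distinct pattern between groups (Adra1a), to the receptor that lay near background (Adrb3), and to a pair of probes for the stimulatory and the inhibitory G protein subunit, which are related proteins. Capitals in the Gnas and Gnai2 probes mark the longest stretch that they share, 14 bases.
Adra1a probe: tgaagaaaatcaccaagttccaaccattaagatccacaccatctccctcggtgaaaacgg
Adrb3 probe: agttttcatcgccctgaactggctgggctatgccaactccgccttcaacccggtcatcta
Gnas probe: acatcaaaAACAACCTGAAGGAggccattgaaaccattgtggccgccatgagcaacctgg
Gnai2 probe: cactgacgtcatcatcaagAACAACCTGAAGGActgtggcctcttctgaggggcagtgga
In mm9 the files place the Adra1a probe at chr14:67346728-67346787 on the plus strand, the Adrb3 probe at chr8:28337864-28337923 on the minus strand and the Gnai2 probe at chr9:107517955-107518014 on the minus strand. The Gnas probe is placed at chr2:174167177-174167338 on the plus strand, an interval longer than the probe itself. The files do not say in which exon each lies.

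Levels are given as log2 of the scanner signal after quantile normalisation between arrays, and are compared between groups for the same probe only. Tests were limited to probes detected (positive and significant) on 50% or more of the arrays in each group, as were 15 of the 21 probes and 30859 of all 56605. The tested probes covered 8 of the 9 genes. Differences were fitted with limma over all tested probes, and a call needed a Benjamini-Hochberg adjusted p under 0.05. C and D arrays shared slide 1, and C+P and D+P arrays shared slide 2, so a difference between mice with and without pargyline cannot be told apart from one between slides. The rows of a slide followed diabetes, with controls in row 1 and diabetic mice in row 2, and these cannot be told apart either. The spots well above background numbered 23556 to 29231 per array of 59305, and the median coefficient of variation of replicate spots was 3.89% to 23.2% per array, highest on D replicate 1.

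**Figure D1:**
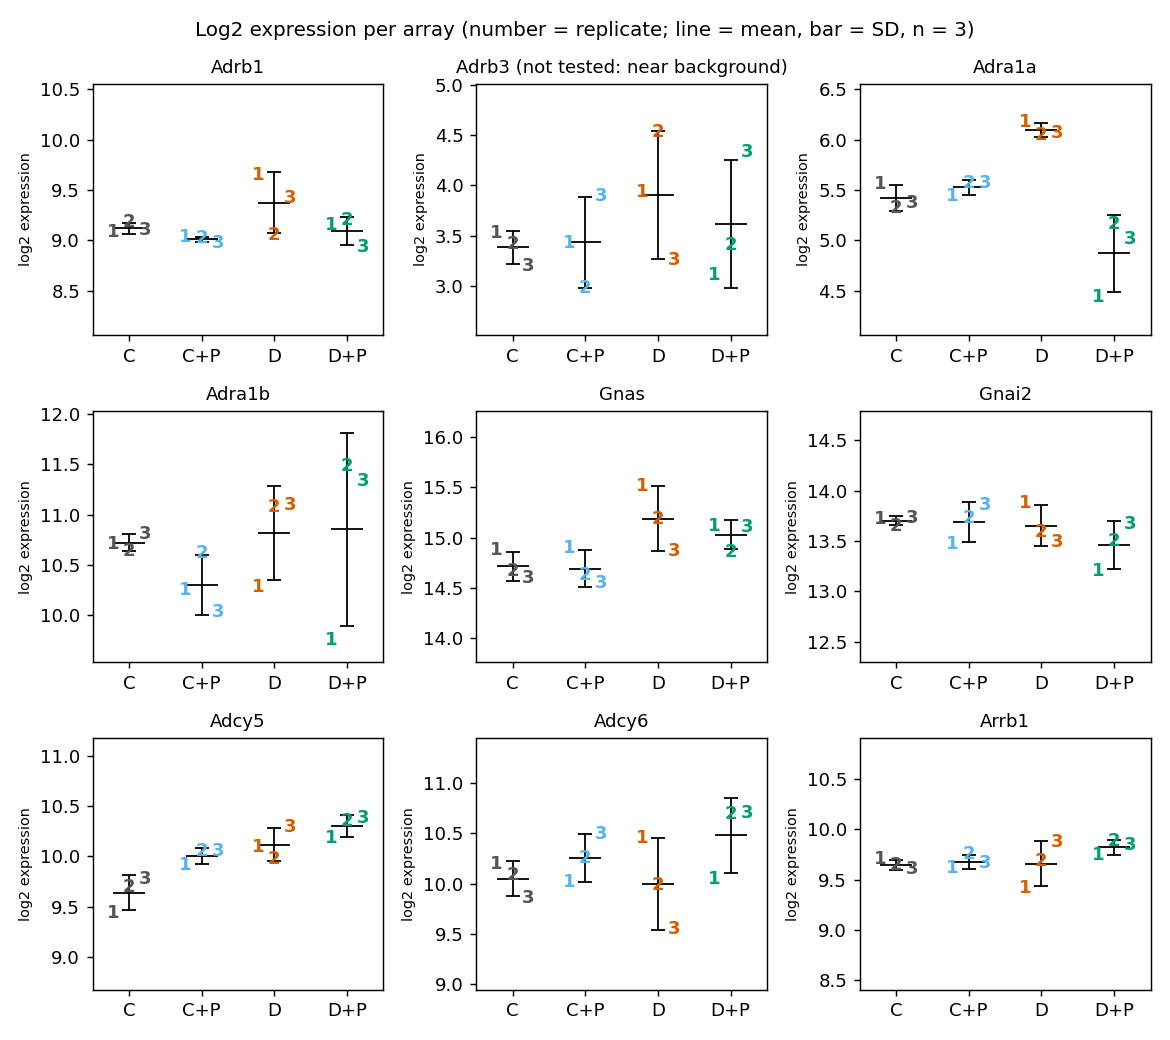
Log2 level of each gene (y axis, normalised signal) in the 4 groups (x axis), with the brightest tested probe of each gene, or the brighter Adrb3 probe, which was not tested. Each digit is the replicate number of 1 array, the line is the mean and the bar the SD (n = 3), and every panel spans the same number of log2 units; the 3 D arrays of Adra1a lie above, and the 3 D+P arrays below, every other array of that gene.

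No probe of the 9 genes passed the adjusted threshold in any comparison. In D against C the count was 0 of 15 probes, against 0.00648% of all tested probes, and in D+P against C+P it was 0 of 15, against 0.0454%. For diabetes averaged over pargyline the share of all tested probes was 0.107%, for C+P against C 0.0324%, for D+P against D 0% and for the interaction 0.00648%, with 0 of 15 in each. At an unadjusted p under 0.05, 3 of the 15 probes were higher in D than in C, those of Adra1a, Adcy5 and the brightest of Gnas, while 10.8% of all tested probes differed in either direction. In the other comparisons the unadjusted count was 1 of 15 in D+P against C+P (7.46% of all), 2 of 15 for diabetes averaged over pargyline (11.4%), 1 of 15 in C+P against C (4.43%), 1 of 15 in D+P against D (13.3%) and 1 of 15 for the interaction (7.03%). Counts of 1 to 3 probes against such backgrounds are no result about the genes as a set.

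Among the 3 tested receptors of the 9 genes, Adra1a differed most between D and C and between D+P and D. It encodes an alpha1 receptor that couples to Gq, and its probe was dim. In C the level was 5.56, 5.32 and 5.37, and in C+P it was 5.44, 5.57 and 5.57. In D it was 6.17, 6.04 and 6.06, and in D+P it was 4.44, 5.16 and 5.01. The order was D+P, C, C+P, D, in which C and C+P overlapped and every other pair of neighbours did not. The D mean, 6.09 ± 0.07 (SD, n = 3), was 1.60-fold that of C, 5.41 ± 0.13 (SD, n = 3), with a log2 difference of 0.68 (SE 0.19, limma, unadjusted p = 0.00425, adjusted p = 0.315). Within the mice given pargyline the difference ran the other way, from 5.53 ± 0.07 in C+P to 4.87 ± 0.38 in D+P (SD, n = 3), a measured log2 difference of -0.66 (SE 0.19, adjusted p = 0.419). That size is not exact, since 2 of the 3 D+P arrays did not have this probe well above background. With each D+P array at no less than the lowest level well above background on it, the D+P mean was 5.15 and the difference -0.38.

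D+P lay below D for Adra1a by a measured log2 difference of -1.22, with a 95% interval of -1.64 to -0.81 (limma, unadjusted p = 5.04e-05, adjusted p = 0.111). With the D+P arrays at no less than that lowest level, D was 1.93-fold higher. That is no lower bound: D+P replicate 2 read 5.16, above its lowest level of 5.01, yet was not well above background. The difference between the effects of diabetes with and without pargyline, the interaction, was measured as -1.34 (SE 0.27, limma, unadjusted p = 0.000413, adjusted p = 0.472) and is not exact either. Each of the diabetes comparisons lies within 1 slide, and each showed groups that did not overlap. Adra1a was the 1 probe of 15 whose groups did not overlap in opposite directions in the 2 diabetes comparisons, which held for 0.836% of all tested probes. It was also the 1 probe with D above C and D+P below D without overlap, which held for 4.22% of all.

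The dimness of the Adra1a probe bears on these values. It was well above background on 3 of 3 arrays in C and in D, on 2 of 3 in C+P and on 1 of 3 in D+P, although positive and significant on all 12. The lowest level at which any probe was well above background was 4.79, 4.72 and 4.95 on the C arrays. On the D arrays it was 5.38, 4.95 and 5.84, higher on replicates 1 and 3 than on any C array. The part of this in the difference between D and C was not tested. Before normalisation the signal of the Adra1a probe was 46.3 to 65.3 in C, 33.4 to 52.2 in C+P, 50.2 to 90.2 in D and 15 to 42.7 in D+P. On that scale D overlapped C and D+P overlapped C+P, and C overlapped C+P, while D+P lay below D without overlap. With another background correction, normexp with an offset of 50, the difference between D+P and D was -0.44 (SE 0.12, adjusted p = 0.223), that between D and C was 0.33 and that between D+P and C+P was -0.18. Among all alternatives the adjusted p ran from 0.0797 to 1 for D+P against D, from 0.056 to 1 for D against C and from 0.202 to 1 for D+P against C+P. A second Adra1a probe, for another transcript, gave no signal well above background on any of the 12 arrays and was not tested.

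**Figure D2:**
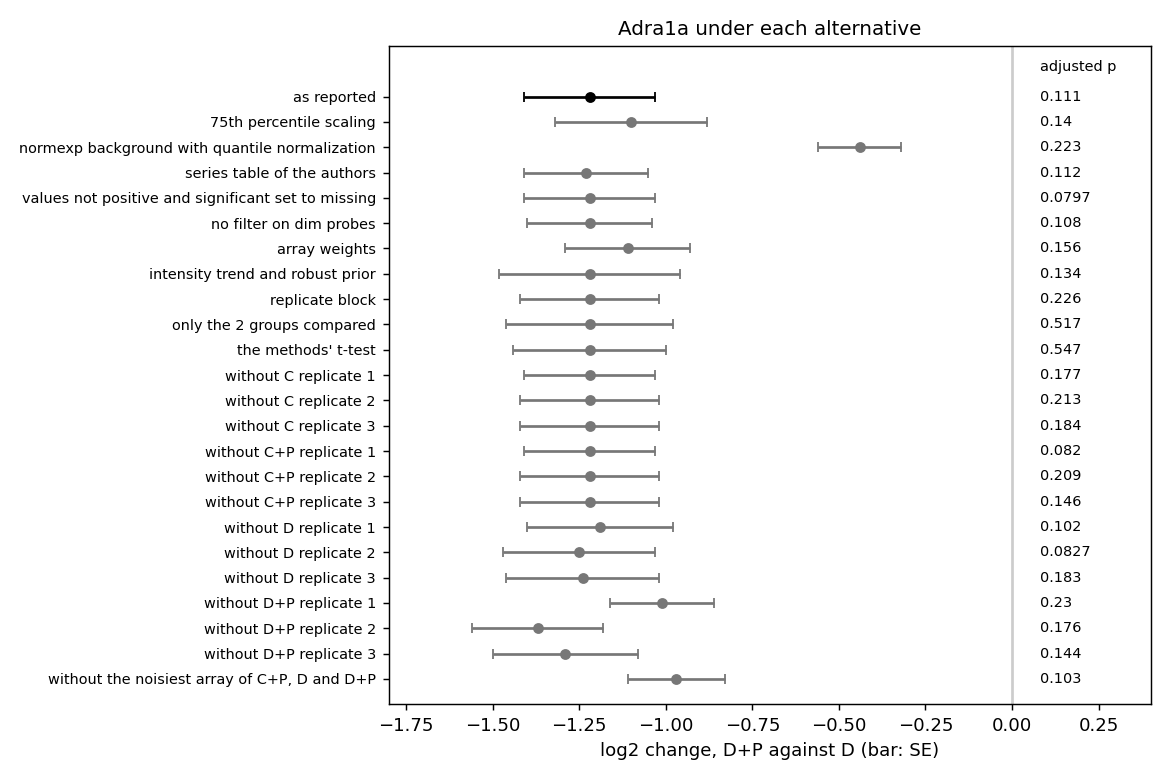
Difference in log2 level of the Adra1a probe between D+P and D (x axis; point, difference; bar, SE) under each alternative that could be fitted (y axis), with its adjusted p at the right. The values run from -1.37 to -0.44 and all lie below 0, and the lowest adjusted p is 0.0797.

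Adra1b, the other alpha1 receptor measured and an abundant subtype in the mouse heart, varied more between mice than between groups. Its level was 10.71, 10.64 and 10.81 in C and 10.25, 10.62 and 10.03 in C+P. In D it was 10.28, 11.08 and 11.10, and in D+P it was 9.75, 11.48 and 11.33. Replicate 1 of each diabetic group lay lower than the other 2 arrays of its group, and these arrays also had the highest variation between spots in their groups, 23.2% in D and 15.1% in D+P. The part of that variation in the result was not tested. The SD within groups was 0.56, larger than that of 78.2% of tested probes, where the median was 0.34.

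The Adra1b difference between D and C was 0.10 with a 95% interval of -0.80 to 1.01, and that between D+P and C+P was 0.56, from -0.35 to 1.47. The first value was 0.37 without D replicate 1, -0.02 without D replicate 2 and -0.04 without D replicate 3, so that its sign rested on single arrays. With each array left out in turn the second value ran from 0.24 to 1.11. The highest came without D+P replicate 1 (SE 0.27, limma, unadjusted p = 0.00237, adjusted p = 0.229, and 0.146 to 1 among all alternatives). Without the replicate 1 arrays of C+P, D and D+P, a set chosen after their values were seen, diabetes averaged over pargyline gave 0.73 (adjusted p = 0.0787, and up to 0.901 among the alternatives), against 0.33 with all arrays (adjusted p = 0.697). C+P lay below C without overlap, with a log2 difference of -0.42 (95% interval -1.33 to 0.49).

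Adrb1 encodes the beta1 receptor, the main beta receptor of heart muscle. Its level was 9.08, 9.18 and 9.10 in C, 9.03, 9.02 and 8.98 in C+P, 9.65, 9.05 and 9.42 in D, and 9.15, 9.20 and 8.94 in D+P. The D group spanned the range of the other groups upwards, through replicates 1 and 3, and its replicate 2 lay between C+P and C. D against C gave 0.25 (95% interval -0.12 to 0.62, adjusted p = 0.579), and D+P against D gave -0.28 (95% interval -0.65 to 0.09, adjusted p = 0.478). Without D replicate 1 these values were 0.12 and -0.14, and without D replicate 2 they were 0.41 (unadjusted p = 0.0272, adjusted p = 0.335) and -0.44 (unadjusted p = 0.0203, adjusted p = 0.257). Array weights gave 0.06 and -0.07, and normexp background correction gave 0.10 and -0.03. Among all alternatives the adjusted p ran from 0.335 to 1 and from 0.257 to 1. C+P lay below C without overlap by a small margin, with a log2 difference of -0.11 (SE 0.17). Among the alternatives that difference ran from -0.13 to 0.02, so its sign was not stable. The 95% intervals leave room for differences of up to about their bounds, and do not show that the groups were alike.

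Adrb3, the beta3 receptor, which is best known from adipose tissue, was not measured above background. Both of its probes were well above background on 0 of 12 arrays, and were positive and significant on 5 and 1 of the 12. The brighter probe read 3.20 to 3.53 in C, 2.98 to 3.89 in C+P, 3.26 to 4.53 in D and 3.11 to 4.33 in D+P, whereas the lowest level at which any probe was well above background ranged from 4.72 to 5.84 among the arrays. Adipocyte markers were also sparse: 5 of 7 were well above background on no array, Adipoq among them.

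The G protein subunits did not separate the groups as Adra1a did. Gnas encodes the stimulatory alpha subunit that links beta receptors to adenylyl cyclase, and its locus also yields other transcripts, imprinted and noncoding ones among them. Of its 9 probes, 6 were tested. The brightest, at the 3′ end (mm9, chr2:174172010-174172069), read 14.88, 14.67 and 14.60 in C and 14.90, 14.63 and 14.55 in C+P. It read 15.51, 15.19 and 14.87 in D and 15.12, 14.86 and 15.11 in D+P. Most diabetic arrays lay above most controls, with an overlap at D replicate 3 and at D+P replicate 2. The difference of D from C was 0.47 (SE 0.19, limma, unadjusted p = 0.0307, adjusted p = 0.428), and diabetes averaged over pargyline gave 0.41 (unadjusted p = 0.0121, adjusted p = 0.312). The first value ran from 0.31 without D replicate 1 (unadjusted p = 0.115) to 0.68 with scaling to the 75th percentile, and the unadjusted p was under 0.05 in 17 of 25 alternatives, with an adjusted p of 0.116 to 1.

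The other Gnas probes split by position. The neighbouring probe, 77 bases upstream, gave 0.21 for D against C and 0.25 for D+P against C+P, and the probe printed above, 4833 bases upstream, gave 0.48 and 0.15. The tested probes 10350, 12648 and 17762 bases upstream, which the files assign to transcripts with no RefSeq match, gave -0.56, -0.46 and -0.30 for D against C, but 0.35, 0.62 and 0.18 for D+P against C+P. None of these 5 probes had an unadjusted p under 0.05 in any comparison, and the lowest was 0.0556.

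The low D values of the probes at 10350 and 12648 bases came mainly from D replicate 3, with levels of 7.42 and 7.19, and in C+P replicate 1 stood low, with 7.96 and 7.69. At 12648 bases D+P lay above C+P without overlap, at 9.17, 8.86 and 8.64 against 7.69, 8.53 and 8.61. These probes therefore showed differences between single arrays that the 3′ probes did not share: at the brightest probe the same D replicate 3 read 14.87, inside the range of C.

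**Figure D3:**
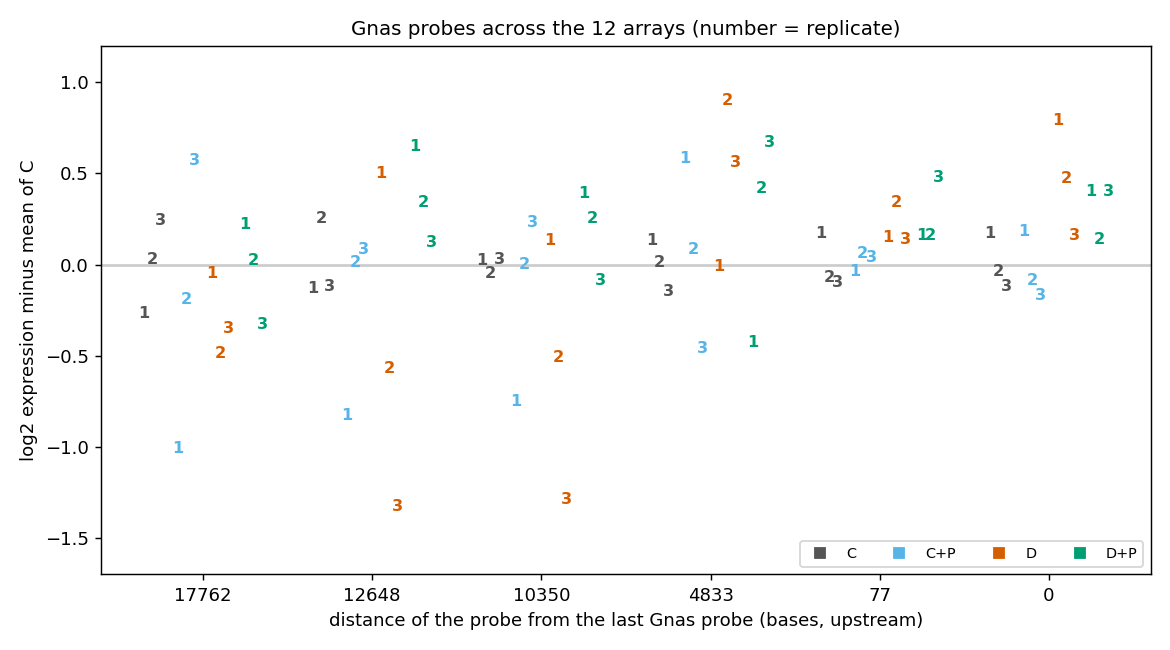
Log2 level of the 6 tested Gnas probes minus the mean of C (y axis), ordered by distance upstream of the last probe in bases (x axis, not to scale). Each digit is the replicate number of 1 array and the colour gives the group; at 10350 and 12648 bases D replicate 3 lies at -1.29 and -1.33, while at 0 bases all D arrays lie above 0.

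Gnai2, the inhibitory alpha subunit, had 2 tested probes. The brighter read 13.72, 13.65 and 13.73 in C, 13.47, 13.73 and 13.86 in C+P, 13.88, 13.59 and 13.49 in D, and 13.20, 13.50 and 13.67 in D+P, so that all groups overlapped. Its differences ran from -0.23 in D+P against C+P to -0.01 in C+P against C. The probe printed above gave 0.18 in D+P against D, where the brighter probe gave -0.20, and neither passed at an unadjusted p under 0.05. With scaling to the 75th percentile in place of quantile normalisation, the brighter probe gave 0.16 in D against C, opposite in sign to the -0.04 given here, and -0.39 in D+P against D (adjusted p = 0.349, the lowest among the alternatives).

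Of the adenylyl cyclases, Adcy5 had higher levels in both diabetic groups than in their controls, short of the adjusted threshold. With Adcy6 it encodes the main cyclase isoforms of heart muscle, which turn ATP into cAMP. Its level was 9.44, 9.70 and 9.77 in C and 9.91, 10.05 and 10.05 in C+P. It was 10.09, 9.97 and 10.29 in D and 10.18, 10.35 and 10.38 in D+P. The order of the means was C, C+P, D, D+P, and C lay below all other arrays without overlap, whereas C+P overlapped D and D overlapped D+P. D was 1.39-fold C, a log2 difference of 0.48 (SE 0.15, limma, unadjusted p = 0.00995, adjusted p = 0.346), and D+P was 1.23-fold C+P, a log2 difference of 0.30 (unadjusted p = 0.0763, adjusted p = 0.692).

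Averaged over pargyline, diabetes gave 0.39 for Adcy5 (95% interval 0.15 to 0.63, limma, unadjusted p = 0.00439, adjusted p = 0.24). Among the alternatives this value ran from 0.20 to 0.43, with a limma adjusted p of 0.117 to 0.619. The interaction was -0.18 (95% interval -0.65 to 0.30), so a difference between the effects with and without pargyline was not detectable with 3 mice per group. C+P exceeded C by 0.37 (limma, unadjusted p = 0.0364, adjusted p = 1), and by 0.11 to 0.43 among the alternatives. Immediate early genes, which respond fast to stimulation or handling of tissue, moved with C+P as well: the log2 of their summed level was 13.07 to 13.85 there and 9.55 to 10.14 in the other groups, with 3 of 7 genes well above background on all 12 arrays. Their part in this result, and in the difference of Adra1a between D+P and C+P, was not tested. With normexp background correction the Adcy5 difference between D and C was 0.22 (adjusted p = 0.719, and 0.142 to 1 among all alternatives).

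Adcy6 read 10.20, 10.09 and 9.86 in C, 10.02, 10.26 and 10.49 in C+P, 10.46, 9.99 and 9.55 in D, and 10.05, 10.69 and 10.7 in D+P, at the brighter of its 2 probes. All groups overlapped. D against C gave -0.05 (95% interval -0.63 to 0.52) and D+P against D gave 0.48 (95% interval -0.09 to 1.05, adjusted p = 0.44). Without the replicate 1 arrays of C+P, D and D+P the second value was 0.92 (adjusted p = 0.114, and up to 1 among the alternatives), and without D replicate 3 alone it was 0.26 (adjusted p = 0.727). The dimmer probe gave 0.05 and 0.13 in the same comparisons.

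Arrb1, which encodes beta-arrestin 1, had the smallest spread of these probes, with an SD within groups of 0.13, and small differences. Its level was 9.70, 9.64 and 9.60 in C, 9.61, 9.75 and 9.66 in C+P, 9.42, 9.68 and 9.87 in D, and 9.74, 9.88 and 9.84 in D+P. D+P had the highest mean, and its lowest array, at 9.74, lay just under the highest of C+P. D against C gave 0.01 (95% interval -0.31 to 0.34) and D+P against D gave 0.16 (95% interval -0.16 to 0.49). With each array left out in turn the first ran from -0.09 to 0.13 and the second from 0.05 to 0.27.

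**Figure D4:**
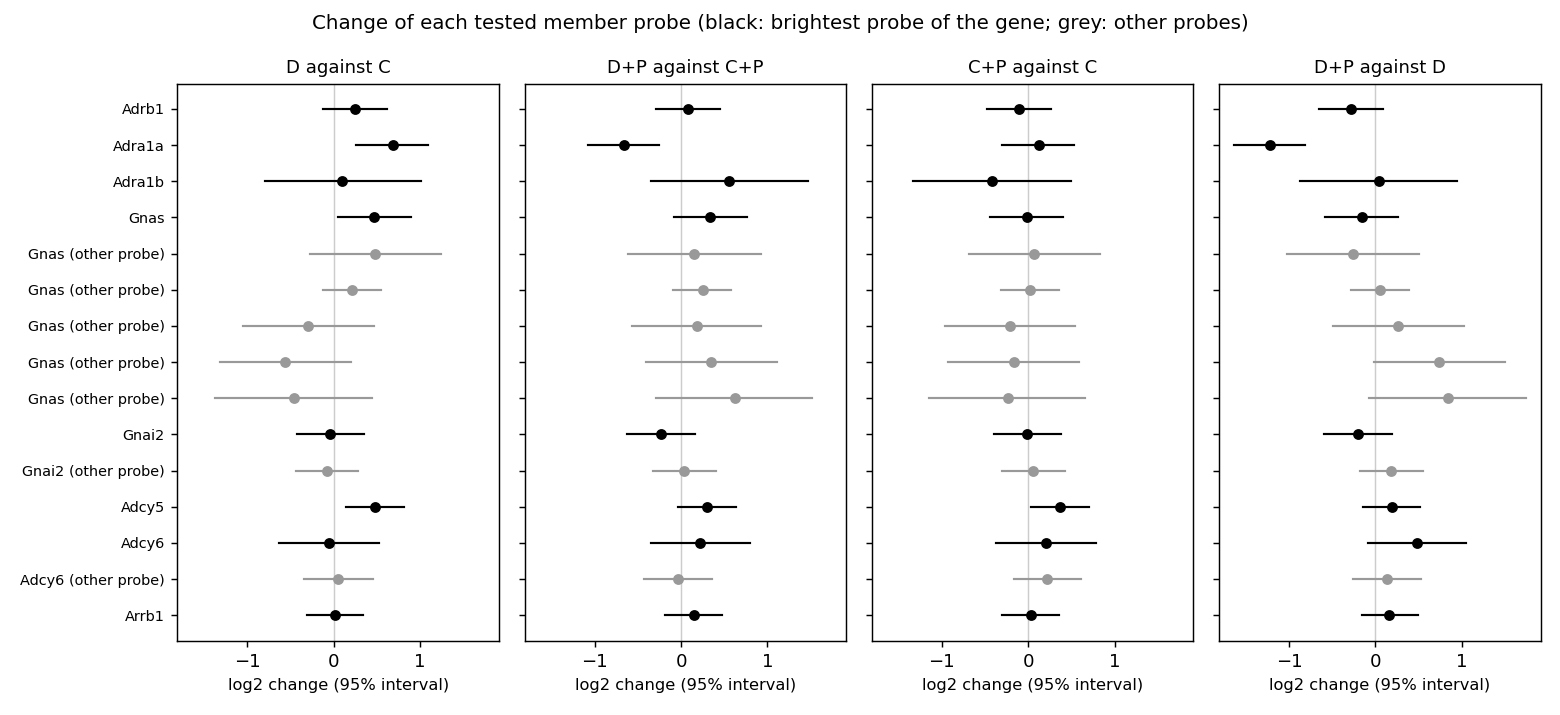
Differences in log2 level (x axis; point, difference; line, 95% interval) of the 15 tested probes (y axis) in 4 comparisons. Black marks the brightest probe of a gene and grey its other probes; Adra1a is the 1 probe whose interval lies above 0 in the first panel and below 0 in the second and in the last.

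Taking 1 probe per gene, 6 of 8 genes were higher in D than in C, with a median log2 difference of 0.18 against -0.01 over all tested probes, and under pargyline 6 of 8 were higher with diabetes, with a median of 0.19 against 0.01. Averaged over pargyline, 7 of 8 were higher, with a median of 0.13 against -0.01. Of all tested probes 48.9%, 51% and 48.5% were higher in these 3 comparisons, of which the averaged one is made from the other 2. The 7 genes include Adra1a at 0.01 (SE 0.13), and the 6 in D against C include Arrb1 at 0.01 (SE 0.15). Such counts over 8 genes are no result about the genes as a set. The sizes were not larger than usual in D against C and on average over pargyline: the median absolute difference was 0.18 for these genes against 0.25 for all probes, and 0.15 against 0.18, whereas under pargyline it was 0.26 against 0.22. The medians were 0.01 in C+P against C, -0.06 in D+P against D and -0.15 for the interaction, where those of all probes were -0.01, 0 and 0. Groups did not overlap for 2 of 15 probes in D against C (22.2% of all tested probes), for 4 of 15 in D+P against C+P (13.9%), for 3 of 15 in C+P against C (15.3%) and for 1 of 15 in D+P against D (17%). D against C shares its D arrays with D+P against D and its C arrays with C+P against C, so these comparisons are not independent.

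The patterns most like those of the single receptors were sought among 17281 genes over the 12 arrays. For Adrb1, Sebox (Pearson correlation 0.926) and Fryl (0.923) were among the 3 genes with the highest values. For Adra1b the 3 highest correlations were with E130119H09Rik (0.917), Zfp503 (0.914) and Nkrf (0.907). For Adra1a, added after its values were seen, they were with Rdh1 (0.913), Thnsl2 (0.878) and Naf1 (0.874). All points share the arrays and their normalisation, and these are the highest of many, so they are given as a description.

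Other genes of the pathway were read from the same fit, with the brightest tested probe of each. Of 78 genes in 8 lists, 69 were tested and 0 passed the adjusted threshold in any comparison. At an unadjusted p under 0.05, 5 were higher and 3 lower in D than in C, and under pargyline 1 was higher and 3 were lower with diabetes. These are 8 and 4 of 69, where 10.8% and 7.46% of all tested probes passed, and are near those shares. For diabetes averaged over pargyline the counts were 5 and 3 (11.4% of all tested probes), for C+P against C 4 and 1 (4.43%), for D+P against D 1 and 2 (13.3%), and for the interaction 0 and 4 (7.03%). The median over the 69 genes lay between -0.06 and 0.05 in the 6 comparisons.

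Among the other adrenergic receptors, 2 of 5 were tested. Adra2c, an alpha2 receptor that restrains noradrenaline release from sympathetic nerve endings, read 5.42, 5.10 and 4.63 in C, 4.13, 4.67 and 4.69 in C+P, 5.53, 5.52 and 5.48 in D, and 5.72, 5.34 and 5.51 in D+P. Measured levels of both diabetic groups lay above those of their controls without overlap. The probe was dim, well above background on 2 of 3 arrays in C, 0 of 3 in C+P, 1 of 3 in D and 3 of 3 in D+P. Its level in C+P is therefore not exact. Nor is the measured difference of 0.46 in D against C (limma, adjusted p = 0.488), which was 0.25 without C replicate 3. The mean over the C+P arrays of the lowest level well above background was 5.26. The D+P mean of 5.52 was 1.2-fold higher than that. The fold is no lower bound, since a probe can read above that level without being well above background, as Adra1a did on D+P replicate 2. The measured C+P mean was 4.50, and the difference of D+P from it had an adjusted p of 0.236 (limma). Summed markers of sympathetic nerve and Schwann cells had a log2 level of 9.97 to 10.28 in C, 9.77 to 9.94 in C+P, 10.19 to 10.27 in D and 10.14 to 10.43 in D+P, with 2 of 6 genes well above background on no array, and their part in the result was not tested.

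All 16 of the other G protein subunits were tested. Gnao1, an alpha subunit of the inhibitory family, read 7.79, 8.14 and 7.95 in C, 8.06, 8.40 and 8.16 in C+P, 7.83, 7.49 and 7.78 in D, and 7.31, 7.43 and 7.15 in D+P. D+P lay below both C+P and D without overlap, with a log2 difference from C+P of -0.91 (SE 0.17, unadjusted p = 0.000231, adjusted p = 0.16). The summed immediate early genes were higher in C+P as well, 13.07 to 13.85 against 9.79 to 9.98 in D+P, and their part in this difference was not tested. Averaged over pargyline diabetes gave -0.58 (adjusted p = 0.123), and all 3 of its tested probes were lower, with values of -0.60 to -0.55.

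The receptor kinases phosphorylate activated receptors so that arrestin can bind. Of 6 genes in the desensitization list, all were tested, and Grk5, a kinase abundant in heart, read 7.96, 8.02 and 7.65 in C, 8.64, 8.40 and 8.16 in C+P, 8.84, 8.42 and 8.46 in D, and 8.0, 8.65 and 8.52 in D+P. C lay below D and C+P without overlap. D against C gave 0.70 (SE 0.22, unadjusted p = 0.00907, adjusted p = 0.342) and D+P against C+P gave -0.01 (adjusted p = 0.994), with an interaction of -0.71 (adjusted p = 0.709). The immediate early genes, higher in C+P, and the atrial genes, lowest in C, moved with parts of this pattern, and their part in it was not tested.

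Downstream of cAMP, Ryr2, the calcium release channel of the sarcoplasmic reticulum and a target of protein kinase A, read 13.44, 13.81 and 13.54 in C, 13.75, 13.41 and 13.36 in C+P, 11.83, 12.99 and 12.62 in D, and 12.18, 12.89 and 12.90 in D+P. Every diabetic array lay below every control array at this probe, and diabetes averaged over pargyline gave -0.99 (SE 0.21, unadjusted p = 0.000767, adjusted p = 0.141). The 3 tested probes of Ryr2 did not move alike: the others gave -0.22 and 0.16 for the same comparison. Akap5, which anchors protein kinase A near receptors and channels, read 5.41, 6.23 and 7.44 in D and 7.31 to 7.98 in C, with a difference of -1.27 in D against C (SE 0.44, adjusted p = 0.375) and of -0.24 in D+P against C+P. The probe was not well above background on 1 of the 3 D arrays, and without D replicate 1 the difference from C was -0.80 (limma, adjusted p = 0.429). The difference of D+P from C+P was -0.54 without D+P replicate 1 and -0.02 without D+P replicate 2.

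In the remaining lists, the gene of each list with the largest measured difference for diabetes averaged over pargyline was the phosphodiesterase Pde7a, the cyclase Adcy1 or, in the alpha1 branch, the inositol trisphosphate receptor Itpr2. Pde7a read 9.87, 10.15 and 10.05 in C, 10.36, 10.48 and 10.58 in C+P, 10.40, 9.69 and 8.32 in D, and 9.71, 10.17 and 10.06 in D+P, with an averaged difference of -0.52 (adjusted p = 0.525). D replicate 3 was far below the rest, and without it the averaged difference was -0.24 and that of D against C was 0.02. The averaged difference of Adcy1 was -0.34 (adjusted p = 0.591), or -0.17 without C+P replicate 1, and is not exact, since its signal cleared background on 1 of 3 arrays in D and in D+P. That of Itpr2 was -0.27 (adjusted p = 0.56). Of the phosphodiesterases 8 of 9 were tested, of the other cyclases 4 of 8, and of the alpha1 branch 9 of 9. None of their 21 tested genes had an unadjusted p under 0.05 in D against C, where 10.8% of all tested probes did, or in D+P against C+P, where 7.46% did, and with so few genes this is no result about the lists.

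Markers of the tissue were as labelled: the 6 cardiomyocyte genes were well above background on all 12 arrays, and the log2 of their summed level was 19.26 to 19.55 throughout. The summed log2 level of atrial genes was 13.44 to 13.96 in C, 14.28 to 14.76 in C+P, 15.15 to 15.52 in D and 14.57 to 15.58 in D+P. D and C+P each lay above C without overlap, and D+P overlapped C+P. Nppa and Myl4 were well above background on all 12 arrays, Myl7 on 4 and Sln on none. Nppa is also expressed by stressed ventricle. The lowest arrays of this list were those of C, as for Adcy5. Immune genes, all 5 of them well above background on all 12 arrays, summed to 12.89 to 13.16 in C, 12.81 to 12.95 in C+P, 12.50 to 12.80 in D and 12.42 to 12.81 in D+P, so that the diabetic arrays lay at or below the lowest control. Mesothelial genes, 2 of 3 well above background on all arrays, summed to 8.34 to 8.52 in C, 8.60 to 9.19 in C+P, 8.81 to 9.32 in D and 8.44 to 9.35 in D+P. The part of these 3 lists in the values of Adra1a, Adcy5, Gnas, Grk5 and Ryr2 was not tested. Endothelial genes summed to 13.32 to 13.57 in D and 13.68 to 14.00 in D+P, without overlap, beside the difference of Adra1a between these groups, in which their part was not tested. Fibroblast genes summed to 15.37 to 15.53 in C, 15.26 to 15.37 in C+P, 15.43 to 15.59 in D and 15.40 to 15.69 in D+P, with D+P above C+P without overlap. Adipocyte genes summed to 13.59 to 13.99 in C, 13.70 to 14.16 in C+P, 14.08 to 14.35 in D and 12.71 to 14.56 in D+P, with D above C without overlap. Of these 7 genes Pnpla2, a lipase that other cells express too, was well above background on all 12 arrays, Cfd on 5 and the other 5 genes on none, so the sum mainly reads Pnpla2. The part of both lists in the diabetes comparisons was not tested. Sums of the other lists ran from 13.35 to 13.89 for smooth muscle and pericyte and from 16.79 to 17.32 for red cell genes over all arrays.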

How the data were processed

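Total RNA from heart muscle, 200 ng per mouse, was labelled with Cy3 and hybridised by the authors to single-colour Agilent mouse arrays. The deposited scanner files hold spot intensity on a linear scale, background-subtracted and detrended by Feature Extraction, version 12.0.0.7 per the file headers, which differs from the version in the methods. The deposited series table holds intensity that the authors quantile normalised, and was used as an alternative only.

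Outlier spots were set to missing and control spots left out. Intensity was log2 transformed and quantile normalised, and repeated spots were averaged. Values not positive and significant, 2.03% of those tested, were kept. A model with a mean for each group was fitted to the 12 arrays together with the lmFit and eBayes functions of limma (version 3.58.1, under R 4.3.3), with 8 residual and 2.62 prior degrees of freedom and a prior SD of 0.29. Tests were two-sided, with Benjamini-Hochberg adjustment over all 30859 tested probes of a comparison. The fit was tested on simulated data. Tables were handled with version 1.17.8 of data.table, and figures were drawn in Python 3.11.15 with matplotlib 3.10.9, pandas 2.3.3 and numpy 2.4.6.

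Groups were taken from the labels, which describe 3 different mice per group, so p-values measure the spread between mice of 1 experiment, and 3 arrays per group limit the precision. Coordinates of probes (mm9) were taken from the files. RefSeq (GRCm38.p6) accessions matched 17 of the 21 probes and named all 9 genes alike. The 9 genes, the pathway and marker lists and the naming rules were chosen with earlier results of these data known. Named were all 9 genes, each pathway gene past the threshold, and in each pathway list the gene with the largest difference for diabetes averaged over pargyline. The alternatives were another scaling or background correction, the series table, other filters, array weights, an intensity trend, a block for replicate number, the 2 groups alone, the methods' t-test, and each array left out. In the comparison of patterns with Adrb1, 1 gene that met the naming rule is not reported here.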

Additional observations from a re-analysis of the deposited data

Results flagged for a closer look

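For Adra1a the effect of diabetes differed in direction between mice without and with pargyline: after normalisation all 3 D arrays lay above all C arrays, and all 3 D+P arrays lay below all C+P arrays, whereas both pairs overlapped in the signal before normalisation. The difference between these effects was -1.34 on the log2 scale (SE 0.27, limma, unadjusted p = 0.000413), which did not pass after adjustment over all tested probes (adjusted p = 0.472). Its signal stood well above background on 9 of the 12 arrays. The other 3 were 2 of the D+P arrays and 1 of the C+P arrays, so the value is not exact. Among the alternatives the value ran from -1.49 to -0.51, with adjusted p from 0.144 to 0.963.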

How the results depend on the processing

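In each of the 6 comparisons 0 of the tested probes of these genes passed the adjusted threshold under every alternative that could be fitted, including each array left out (0 to 0). Over all probes the counts did depend on the processing. In D against C 2 probes passed, and 0 to 279 under the alternatives. The count was 14 in D+P against C+P (1 to 39), 33 for diabetes averaged over pargyline (3 to 348) and 10 in C+P against C (1 to 206). It was 0 in D+P against D (0 to 9) and 2 for the interaction (0 to 5). The highest counts of the first 4 came with array weights and those of the other 2 with no filter on dim probes. Correlations of deviations from the group means were -0.20 to 0.20 in 12 pairs of arrays with the same replicate number, over 0.1 in 4, and -0.19 to 0.20 in 24 other pairs, over 0.1 in 2. Replicate 1 had the highest spot variation in every group. Values over 0.1 were more frequent among pairs with the same number, though most of these pairs were not over 0.1. The labels describe different mice, so the numbers were not taken to pair samples, and a replicate block was fitted as an alternative. With the replicate block 0 probes of these genes were called in each comparison. The methods' t-test was run here for pairs of groups, with equal variance and with values short of the filter kept, which the paper set to missing. It called 0 or 1 probe per comparison among all probes, both by Bonferroni and after Benjamini-Hochberg adjustment. The paper names an adjusted Bonferroni correction, so these counts are not those of its own test. Scaling to the 75th percentile moved the median of all probes by at most 0.05. The stricter filter on signal removed Adra1a. Limits are the dimness of that probe, the 3 arrays per group, and the overlap of pargyline with slide and of diabetes with slide row.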
